A study of Mus musculus with 8 samples.

Results

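Hyaluronan is a long sugar polymer that fills the space between brain cells, and its handling was followed here through 10 genes: the synthases Has2 and Has3, the degrading proteins Cemip and Hyal2, the receptor Cd44, the link proteins Hapln1, Hapln2 and Hapln4, and the lecticans Acan and Bcan. The genes were chosen by symbol from the 37310 genes of the count table, with the genotype results of these libraries already known, so their folds and p-values are descriptions and not independent evidence. All 10 were found, 1 row each, and all 10 passed the filter on low counts. RNA came from whole hippocampi of 4 mice carrying a knocked-out copy of Nr2f1 beside a normal copy (Nr2f1 het) and of 4 wild-type (WT) mice. Every animal was a B6.129 F1 hybrid, 3 months old and labelled male, and each library came from a separate animal. Nr2f1 encodes a nuclear receptor that patterns the developing cortex and hippocampus. The sources used here do not say how the knockout allele was made. The tissue was not sorted, so a lower value can mean fewer cells of a type or less RNA per cell, and these cannot be told apart.

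Hyaluronan chains are spun out at the cell surface by synthases and cut by hyaluronidases and by Cemip, and cells hold them through receptors such as Cd44. In the brain, proteoglycans called lecticans bind hyaluronan, link proteins lock that bond, and tenascin-R ties the lecticans together. Where this lattice condenses around a nerve cell it is called a perineuronal net. In the hippocampus nets are best known around parvalbumin interneurons and, in mice, around CA2 pyramidal cells. Brevican, the product of Bcan, is also made by astrocytes and is spread widely between cells, and Hapln2 is known from the nodes of Ranvier of myelinated axons.

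Libraries held 58717305 to 90043971 gene counts, and values are given as CPM, read counts scaled to the TMM-normalised library size. Nr2f1 itself was at 32.4, 31.0, 33.5 and 28.5 CPM in het libraries 1 to 4, against 53.4, 49.5, 54.1 and 51.6 CPM in WT libraries 1 to 4. These levels match the labelled genotypes. The sex label was contradicted in every library, since Xist lay between 463.2 and 601.4 CPM and the 14 Y-linked genes of the table had 3 counts in all. The spike-in mix differed between odd- and even-numbered libraries in both genotypes, so results are also given within each mix. Markers of hippocampal neurons, 6 genes among them Prox1 and Wfs1, were present in every library, with a summed level of 838 to 973 CPM in het and 947 to 1020 CPM in WT libraries. Wfs1 passed as lower without overlap, at 286.3 ± 14.0 CPM in het and 338.2 ± 26.0 CPM in WT libraries (SD, n = 4 each; edgeR adjusted p = 0.0362). Prox1, Zbtb20, Neurod6, Rgs14 and Spink8 overlapped between genotypes and did not pass. Tissue bordering the hippocampus was not equal between genotypes. The summed level of 12 choroid plexus markers ran from 4109 to 4645 CPM in het libraries and from 84.5 to 2117 CPM in WT libraries, and that of 8 meningeal fibroblast markers from 329 to 393 CPM in het and from 95.4 to 245 CPM in WT libraries. Igf2 was the largest part of the meningeal sum, at 229.2 to 271 CPM in het and 43.1 to 156.4 CPM in WT libraries. Of the other meningeal markers, Col1a2, Col3a1 and Dcn did not overlap between genotypes, while Col1a1, Lum, Slc6a13 and Aebp1 did. For 6 ependymal markers these ranges were 29.8 to 45.3 CPM in het and 10.4 to 20.7 CPM in WT libraries. Markers of neighbouring brain regions were apart as well, with 5 thalamic markers summing to between 118 and 155 CPM in het and between 94.1 and 111 CPM in WT libraries, and 6 striatal markers to between 78.7 and 139 CPM in het and between 58.4 and 72.3 CPM in WT libraries. No marker on these 6 lists was at 0 in any library.

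Sequences upstream of the start site were read for the members that the RefSeq table (GRCm38.p6) holds, 7 of 10. Cemip is shown because it was the member that passed the test, and Hapln2 with Bcan because they sit side by side on chromosome 3 with no protein-coding gene between them. Each run is the 250 bases before the start, 5′ to 3′ on the gene's strand, and capitals mark CG dinucleotides. The counts were made on another build, so these positions are not joined to them.
Cemip, chr7:84086506-84086755, minus strand: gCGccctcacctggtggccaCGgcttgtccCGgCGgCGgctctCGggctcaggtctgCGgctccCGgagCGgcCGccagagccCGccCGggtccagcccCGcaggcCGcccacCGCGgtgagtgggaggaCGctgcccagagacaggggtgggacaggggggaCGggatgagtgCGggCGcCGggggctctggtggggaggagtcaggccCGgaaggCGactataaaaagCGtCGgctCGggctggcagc
Hapln2, chr3:88027512-88027761, minus strand: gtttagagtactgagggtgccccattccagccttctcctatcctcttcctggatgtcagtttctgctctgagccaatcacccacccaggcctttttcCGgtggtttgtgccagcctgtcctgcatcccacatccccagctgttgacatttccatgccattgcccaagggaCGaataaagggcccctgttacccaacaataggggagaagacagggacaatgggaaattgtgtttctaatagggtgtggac
Bcan, chr3:88000357-88000606, minus strand: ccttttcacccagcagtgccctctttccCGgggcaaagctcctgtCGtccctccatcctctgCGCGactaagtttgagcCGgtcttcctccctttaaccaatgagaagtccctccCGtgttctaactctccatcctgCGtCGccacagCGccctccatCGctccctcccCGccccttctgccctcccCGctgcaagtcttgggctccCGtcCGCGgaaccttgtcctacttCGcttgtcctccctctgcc
The Cemip run held 26 CG dinucleotides and a GC content of 75.2%, and 9.59% of all 32851 promoters of this length held as many. Hapln2 and Bcan held 2 and 16, although the genes are neighbours. Of the other matched members, Acan also held 26, Hyal2 held 13, Cd44 5 and Hapln1 2. The AGGTCA half-site, the core that nuclear receptors of this family bind, was searched on both strands with 0 matches in the 7 members, against 14.0% of all promoters with at least 1. These letters are only absent from these windows.

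Per length, the members differed widely in level. Levels were divided by the length of all exons of a gene in kb, from a GENCODE annotation of GRCm38. Bcan was highest at 57.6 ± 2.96 CPM per kb in het and 60.1 ± 1.67 CPM per kb in WT libraries (SD, n = 4 each). Hapln4 followed at 48.8 ± 5.01 in het and 52.6 ± 2.47 CPM per kb in WT libraries, and the ranges of these leading members overlapped over the 8 libraries. Hapln2 (mean of all libraries 8.67 CPM per kb), Hapln1 (5.06) and Cemip (3.06) came next, each apart from its neighbour above. Cemip and Hyal2 (2.61 CPM per kb) overlapped, as did Has3 (0.885) and Cd44 (0.621), with Acan (1.13 CPM per kb) apart between those pairs. Has2 was last at 0.0455 ± 0.0237 CPM per kb in het and 0.0531 ± 0.0174 CPM per kb in WT libraries (SD, n = 4 each). With the longest transcript in place of all exons, 7111 rather than 12232 bases for Cemip, Cemip moved to 5.27 CPM per kb, level with Hapln1 at 5.23.

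**Figure D1:**
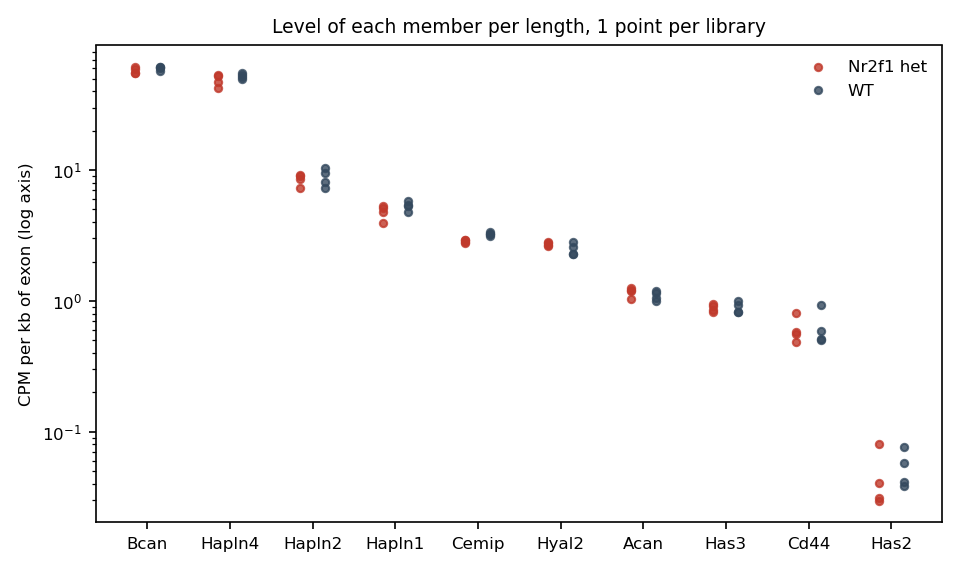
Level of each member in CPM per kb of exon on a log axis, 1 point per library, Nr2f1 het in red and WT in grey, ordered by the mean of all libraries. Bcan and Hapln4 lie between 42.7 and 61.3 CPM per kb and Has2 at 0.0802 or below, and the genotypes overlap in every member except Cemip.

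Hyaluronan breakdown held the 1 member that passed the test. Cemip (ENSMUSG00000052353.7, chromosome 7), which cuts hyaluronan into shorter chains, was at 34.6, 35.7, 34.1 and 35.9 CPM in het libraries 1 to 4, against 41.0, 39.8, 39.9 and 38.5 CPM in WT libraries 1 to 4. Every het library lay below every WT library. The mean fell to 35.1 ± 0.873 CPM in het, against 39.8 ± 1.02 CPM in WT libraries (SD, n = 4 each), a fold of 0.881 and a log2 fold change of -0.18 ± 0.0371 (SE; edgeR adjusted p = 0.0228). The spread of Cemip was the smallest among the members, with a coefficient of variation of 2.49% in het and 2.56% in WT libraries. Of all 17913 genes tested, 0.368% passed as lower in het libraries, 2.62% as higher and 2.99% in either direction, and the genotypes did not overlap in 10.6% (het below WT in 3.59%, het above WT in 6.99%). The rule knew the genotype results, so nothing is read from the share of 1 in 10 members.

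Within each spike-in mix Cemip was lower in het libraries, by a log2 fold change of -0.23 among odd-numbered libraries (edgeR adjusted p = 0.0956) and -0.13 among even-numbered ones (edgeR adjusted p = 0.552), 2 libraries a genotype each. The call ended without het library 1 or 3 or WT library 1 or 3, where the edgeR adjusted p was 0.0593, 0.0594, 0.0737 and 0.0688 in this sequence, and the log2 fold change stayed between -0.20 and -0.17 without any 1 library. Scaling the libraries to the spike-in RNAs, with the mix as a covariate, also ended it and left Cemip at -0.086 on the log2 scale (edgeR adjusted p = 0.429). That scaling moved the median log2 fold change of all tested genes as well, to 0.091 from -0.0056. Among libraries of the same genotype, Cemip ran opposite to the meningeal fibroblast markers (Pearson r = -0.73) and the choroid plexus markers (r = -0.62) over 8 libraries with genotype means removed. The pattern was not particular to bordering tissue. In the same way Cemip had r = -0.69 with oligodendrocyte precursor, -0.64 with astrocyte, -0.28 with ependymal and 0.48 with hippocampal neuron markers. Fitted beside the choroid plexus score, Cemip had a log2 fold change of -0.14 (edgeR adjusted p = 0.720), and without WT libraries 1 and 3, the lowest in choroid plexus markers, of -0.16 (edgeR adjusted p = 0.200). The choroid plexus score was apart between genotypes, and with it fitted 1 gene of the whole table passed. The cause of the Cemip difference was not tested.

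**Figure D2:**
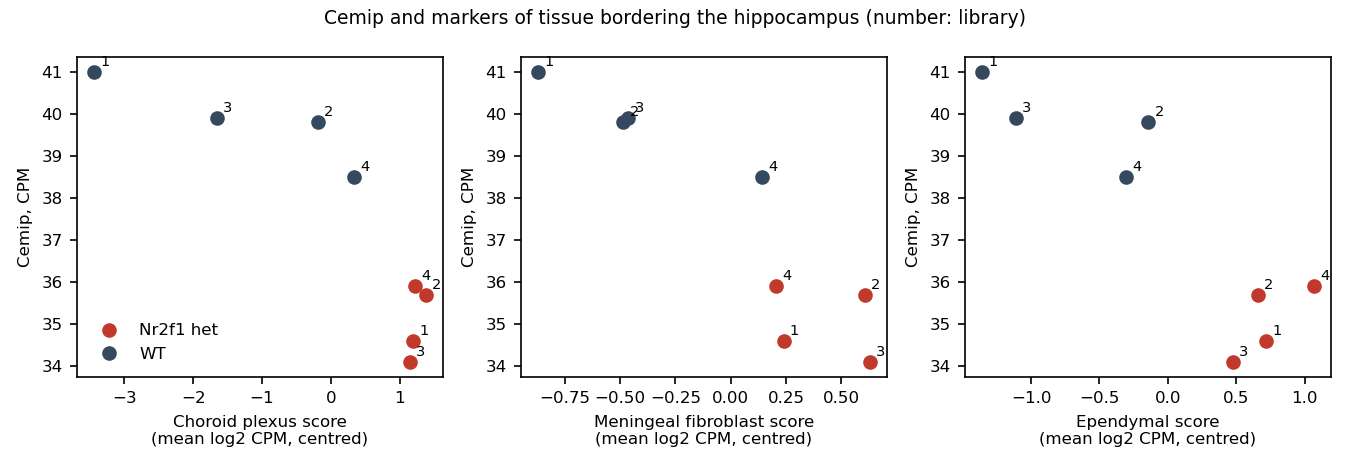
Cemip in CPM, on an axis that does not start at 0, against the centred mean log2 CPM of choroid plexus, meningeal fibroblast and ependymal markers, 1 numbered point per library, Nr2f1 het in red and WT in grey. The het libraries, 34.1 to 35.9 CPM, lie below the WT libraries, 38.5 to 41.0 CPM, and to their right on all 3 scores.

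Hyal2, a hyaluronidase anchored to the outer cell membrane, had 8.60, 8.85, 9.34 and 9.05 CPM in het libraries 1 to 4, against 7.49, 8.57, 7.53 and 9.25 CPM in WT libraries 1 to 4. WT libraries 1 and 3 were the low ones, and WT library 4 overlapped the het libraries. The log2 fold change was 0.125 ± 0.0784 (SE; edgeR adjusted p = 0.460). WT libraries 1 and 3 were also the lowest in choroid plexus markers, and Hyal2 rose and fell with that score inside the genotypes (r = 0.84 over 8 libraries, genotype means removed). The pattern was not particular to choroid plexus. In the same way Hyal2 had r = 0.78 with meningeal fibroblast, 0.76 with ependymal, 0.70 with myelinating oligodendrocyte and -0.54 with hippocampal neuron markers. Fitted beside the choroid plexus score, Hyal2 had a log2 fold change of -0.065, so its sign turned (edgeR adjusted p = 0.947). That score was apart between genotypes, so the fit cannot separate genotype from tissue content. The part of tissue content in the Hyal2 values was not tested.

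Hyal2 has family members next to it on chromosome 9. Hyal1, a lysosomal hyaluronidase and its direct neighbour, was at 4.11, 4.20, 4.10 and 3.69 CPM in het libraries, against 3.08, 3.04, 2.41 and 3.49 CPM in WT libraries. The genotypes did not overlap, at a log2 fold change of 0.42 ± 0.115 (SE), and the gene missed the threshold (edgeR adjusted p = 0.0746; DESeq2 adjusted p = 0.0211). Hyal3 was at 0.723 ± 0.171 CPM in het and 0.464 ± 0.112 CPM in WT libraries (SD, n = 4 each; edgeR adjusted p = 0.165). Exons of Hyal1 share 51.9% of their bases with Hyal3 or Naa80, so their counts are uncertain. Cemip2, a membrane relative of Cemip, had 17.3 ± 0.582 CPM in het and 17.3 ± 0.880 CPM in WT libraries (SD, n = 4 each; edgeR adjusted p = 0.993).

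Taken per length over Cemip, Cemip2, Hyal1, Hyal2 and Hyal3, Cemip made up 31.7% ± 0.912 in het and 37.0% ± 2.52 in WT libraries (SD, n = 4 each). Its share ran from 30.4% to 32.5% in het and from 34.1% to 39.4% in WT libraries, without overlap. The level of the share depends on the length used. With the longest transcript it was 40.2% in het and 45.9% in WT libraries, also without overlap. Both shares use the Cemip counts that already did not overlap, over a sum in which Hyal1, Hyal2 and Hyal3 averaged higher in het. They restate the Cemip difference and are no further evidence of it. Hyal1, whose counts are uncertain because of its shared exons, made up 11.8% ± 0.671 in het and 9.0% ± 0.984 in WT libraries (SD, n = 4 each). Hyal2 held 30.0% ± 0.812 in het and 28.3% ± 1.72 in WT libraries (SD, n = 4 each).

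The synthases overlapped between genotypes. Has3, which makes hyaluronan at the plasma membrane, had 5.78, 5.42, 5.21 and 6.07 CPM in het libraries 1 to 4, against 5.21, 5.94, 5.21 and 6.33 CPM in WT libraries 1 to 4. On the log2 scale it differed by -0.023 ± 0.0906 (SE; edgeR adjusted p = 0.932). Inside the genotypes Has3 followed the ependymal markers (r = 0.90 over 8 libraries, genotype means removed), and the ependymal list did not overlap between genotypes. Fitted beside that score, Has3 had a log2 fold change of -0.365, with an unadjusted p of 0.0345 that missed the threshold once adjusted (edgeR adjusted p = 0.949). In that fit 894 of 17913 genes had an unadjusted p under 0.05 and 0 passed. Nr2f1 itself missed the threshold (edgeR adjusted p = 0.448). The fit cannot separate genotype from tissue content, so no lower Has3 is read from it. The exons of Has3 share 5.52% of their bases with Chtf8.

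Has2, the synthase that mouse embryos require, had only 20, 10, 12 and 14 reads in het libraries 1 to 4, against 13, 21, 13 and 29 reads in WT libraries 1 to 4. This equals 0.340, 0.125, 0.133 and 0.173 CPM in het and 0.173, 0.242, 0.163 and 0.323 CPM in WT libraries, where 3 reads correspond to 0.0332 to 0.0510 CPM by library. The highest het library exceeded every WT library and the other het libraries did not, and a difference was not detectable at this depth (log2 fold change -0.34 ± 0.387, SE; edgeR adjusted p = 0.712). Per length, Has3 made up 71.4% ± 5.32 of the 3 synthases in het and 69.6% ± 2.65 in WT libraries, Has1 24.9% ± 6.78 in het and 26.3% ± 2.07 in WT libraries, and Has2 the rest (SD, n = 4 each).

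Cd44, the main cell-surface receptor for hyaluronan, was at 3.28, 5.51, 3.90 and 3.81 CPM in het libraries 1 to 4, against 3.40, 3.47, 3.99 and 6.32 CPM in WT libraries 1 to 4. A high library in each genotype, het library 2 and WT library 4, set the spread, which was 23.3% of the mean in het and 32.0% in WT libraries. The log2 fold change was -0.057 ± 0.231 (SE; edgeR adjusted p = 0.933). WT library 4 also had the highest meningeal fibroblast score of its genotype, het library 2 had the next to highest of its own, and Cd44 followed that score with r = 0.85 over 8 libraries, genotype means removed. That score was higher in every het than in every WT library, while Cd44 was not. Cd44 also had r = 0.71 with the interneuron and -0.70 with the hippocampal neuron markers. The part of meningeal tissue in the Cd44 values was not tested.

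**Figure D3:**
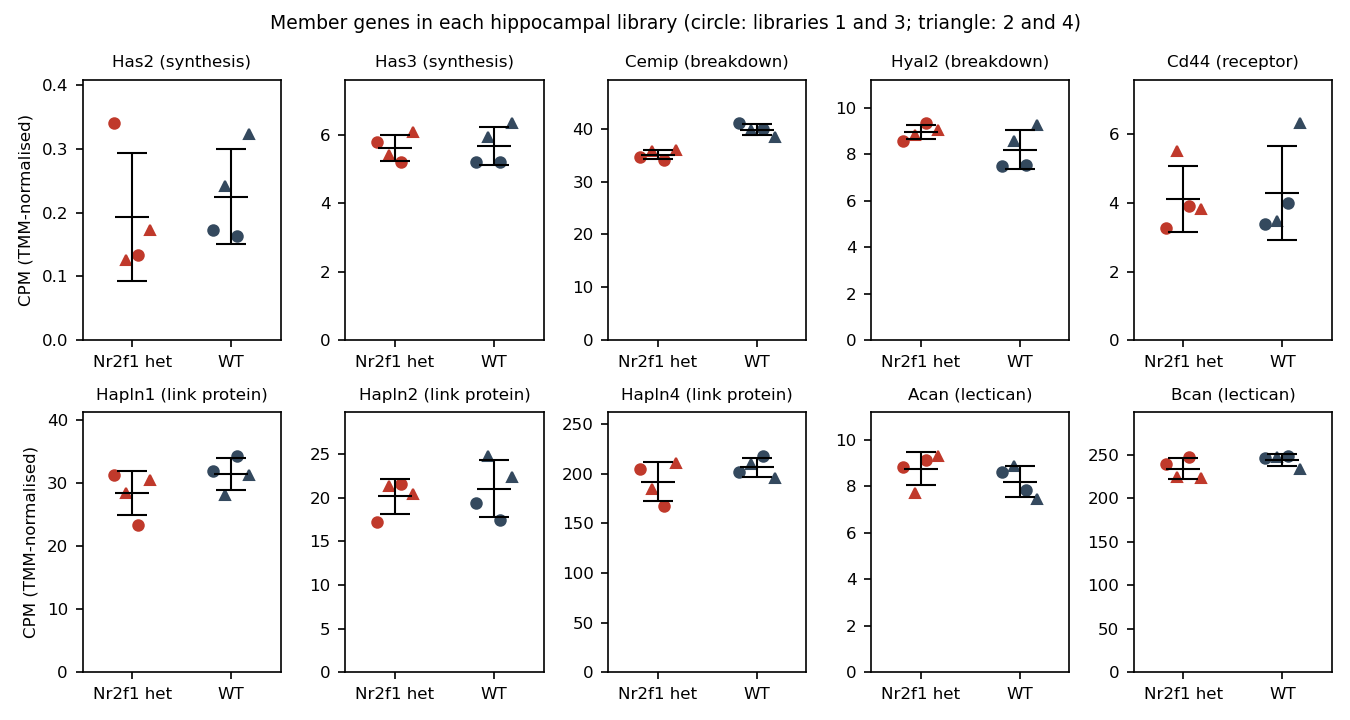
CPM of each member in every library, Nr2f1 het left and WT right, each axis from 0, with circles for libraries 1 and 3 and triangles for 2 and 4; the bar is the mean ± SD (n = 4 each). Cemip is the member in which all het points lie below all WT points.

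The link proteins averaged lower in het libraries by less than the SD of those libraries, and none passed. Hapln1, the widely used cartilage and brain link protein, had 31.3, 28.4, 23.4 and 30.4 CPM in het libraries 1 to 4, against 31.8, 28.1, 34.3 and 31.3 CPM in WT libraries 1 to 4. Het library 3 was low and the other het libraries lay within the WT range. The log2 fold change was -0.15 ± 0.0914 (SE; edgeR adjusted p = 0.452). Hapln1 lies on chromosome 13, as Nr2f1 does, with 12 protein-coding genes between them.

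Hapln4, the brain link protein that pairs with brevican in nets, had 204, 184, 167 and 211 CPM in het libraries 1 to 4, against 202, 209.8, 218 and 196 CPM in WT libraries 1 to 4. Het library 3 was again the lowest, and the genotypes overlapped (log2 fold change -0.11 ± 0.0674, SE; edgeR adjusted p = 0.466). Hapln1 and Hapln4 varied together inside the genotypes, with r = 0.79 over 8 libraries, genotype means removed, the highest of the 45 pairs of members. Hapln4 followed the hippocampal neuron markers (r = 0.88) and ran opposite to the thalamic ones (r = -0.86), and Hapln1 ran opposite to the oligodendrocyte precursor and thalamic markers (r = -0.92 and -0.93). The thalamic score was higher in every het than in every WT library (0.113 to 0.524 in het and -0.382 to -0.157 in WT libraries, centred mean log2 CPM), and its part in the link protein values was not tested.

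Hapln2, the nodal link protein, was at 17.2, 21.3, 21.6 and 20.4 CPM in het libraries 1 to 4, against 19.4, 24.8, 17.4 and 22.4 CPM in WT libraries 1 to 4. The WT libraries alone spanned more than the het ones, and the log2 fold change was -0.056 ± 0.111 (SE; edgeR adjusted p = 0.854). Hapln2 went with the thalamic markers (r = 0.755) and those of myelinating oligodendrocytes (r = 0.72), and against Hapln1 (r = -0.745), each over 8 libraries with genotype means removed. Per length, Hapln4 made up 77.8% ± 1.99 of the 4 link protein genes in het and 78.2% ± 1.58 in WT libraries, Hapln2 13.7% ± 2.21 in het and 13.2% ± 2.06 in WT libraries, and Hapln1 7.65% ± 0.480 in het and 7.91% ± 0.693 in WT libraries (SD, n = 4 each).

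Among the lecticans, Acan and Bcan differed from WT in opposite directions and neither passed. Acan, the gene of aggrecan, the defining proteoglycan of mature nets, had 8.84, 7.71, 9.14 and 9.31 CPM in het libraries 1 to 4, against 8.62, 8.88, 7.82 and 7.46 CPM in WT libraries 1 to 4. The groups overlapped, with het libraries 1 and 2 within the WT range and WT libraries 1, 2 and 3 within the het range (log2 fold change 0.096 ± 0.0818, SE; edgeR adjusted p = 0.604). Inside the genotypes Acan followed the CA2 markers (r = 0.74) and ran opposite to the interneuron markers (r = -0.86) and to Cd44 (r = -0.84), each over 8 libraries. The CA2 score was higher in every het than in every WT library (0.063 to 0.271 in het and -0.201 to -0.107 in WT libraries, centred mean log2 CPM), and its part in the Acan values was not tested. The summed level of the 5 CA2 markers overlapped, at 232.2 to 263 CPM in het and 225.3 to 237.5 CPM in WT libraries. Map3k15 was without overlap between genotypes, while Rgs14, Amigo2, Cacng5 and Necab2 overlapped. The interneuron score overlapped, at -0.075 to 0.054 in het and -0.051 to 0.058 in WT libraries.

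Bcan had 239.8, 225, 248 and 223 CPM in het libraries 1 to 4, against 246, 248, 249 and 234 CPM in WT libraries 1 to 4. Het libraries 2 and 4 were below all WT libraries and the others were not (log2 fold change -0.062 ± 0.0398, SE; edgeR adjusted p = 0.471). Bcan and its neighbour Hapln2 did not vary together (r = -0.215 over 8 libraries, genotype means removed). In the same way Bcan went with the microglial markers (r = 0.95) and against the interneuron ones (r = -0.71). With the astrocyte markers it had r = 0.45. These values therefore do not single out the cells known to make a member's product. Each link protein gene of the mouse lies beside a lectican gene, Hapln1 beside Vcan, Hapln2 beside Bcan, Hapln3 beside Acan and Hapln4 beside Ncan, with 0 protein-coding genes between. The partners outside the member list stayed close between genotypes, with Ncan (neurocan) at 185 ± 4.0 CPM in het and 184.6 ± 6.77 CPM in WT libraries and Vcan (versican) at 34.6 ± 1.32 CPM in het and 33.7 ± 2.32 CPM in WT libraries (SD, n = 4 each; edgeR adjusted p = 0.975 and 0.758). Per length, Bcan made up 66.3% ± 1.09 of the lecticans in het and 67.4% ± 0.588 in WT libraries, Ncan 29.6% ± 0.992 in het and 28.8% ± 0.451 in WT libraries, and Acan 1.35% ± 0.110 in het and 1.23% ± 0.0763 in WT libraries (SD, n = 4 each).

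**Figure D4:**
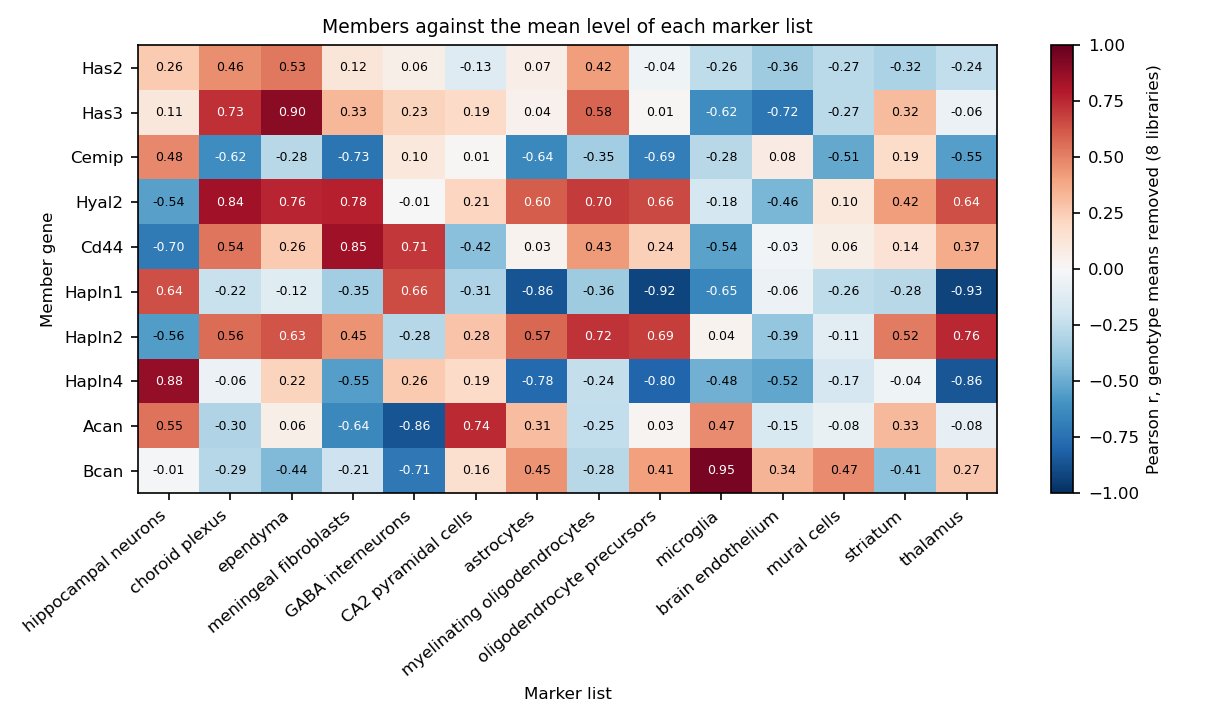
Pearson r between each member and the mean log2 CPM of each marker list over the 8 libraries, genotype means removed. With the astrocyte, oligodendrocyte precursor and thalamic lists, Hapln1 and Hapln4 lie at -0.779 or below and Hapln2 and Hyal2 at 0.574 or above; libraries differ in tissue makeup and depth, which all values share.

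Over the 10 members the median log2 fold change was -0.060, against -0.0056 over all tested genes, with 2 members above 0 and 8 below. No member passed as higher by edgeR, at an unadjusted p under 0.05 or by DESeq2, and Cemip was the 1 that passed as lower by each. Over all tested genes 10.0% were higher and 7.11% lower at an unadjusted p under 0.05, 17.2% in all, and by DESeq2 5.19% passed as higher and 1.65% as lower, 6.83% in all, of 17564 with an adjusted p. The genes most like each member in the libraries, by the highest r with genotype means removed among 11144 genes of at least 5 CPM, were Dlgap4 (0.969), Fmn2 and Pkd2 for Cemip, Usp33 (0.999), Armcx3 and Ppp4r2 for Hapln1, and Nars2 (0.987) and Uba1 for Hapln4. For Hapln2 they were Eml3 (0.991), Hadh and Adck1, for Hyal2 Acacb (0.982), Trnau1ap and Cfap44, and for Has3 the ciliary genes Rsph4a (0.952) and Foxj1 with Kdelr1. For Acan they were Disp3 (0.978), Ebpl and Spns2, for Bcan Opa3 (0.986), Ccdc77 and Pmm1, for Cd44 the serotonin receptor gene Htr5a (0.974), Edil3 and Id2, and for Has2 Ddx58 (0.955), Rmi1 and Emx1. With 8 libraries and so many candidates such values describe these libraries only.

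The rest of the pathway was taken from 7 lists of 85 other genes, of which 75 were tested. By edgeR 4 passed as higher and 0 as lower, against 12 higher and 10 lower at an unadjusted p under 0.05 and 9 higher and 3 lower by DESeq2. Of all tested genes 2.62% passed as higher and 0.368% as lower by edgeR. At an unadjusted p under 0.05 these shares were 10.0% higher and 7.11% lower, and by DESeq2 5.19% higher and 1.65% lower. The 4 that passed by edgeR were matrix proteases, which cut lecticans or other matrix proteins. Mmp2, a gelatinase, was at 7.0, 7.76, 6.98 and 7.07 CPM in het libraries 1 to 4, against 2.72, 3.86, 2.71 and 4.44 CPM in WT libraries 1 to 4. It rose 2.08-fold without overlap (log2 fold change 1.06 ± 0.137, SE; edgeR adjusted p = 0.00411), and WT libraries 1 and 3 were its lowest, as they were for the choroid plexus markers. Mmp14, which activates Mmp2, rose to 12.9 ± 1.14 CPM in het, against 10.3 ± 0.298 CPM in WT libraries (SD, n = 4 each; edgeR adjusted p = 0.0272). Mmp15 rose to 33.3 ± 0.885 CPM in het, against 26.6 ± 2.10 CPM in WT libraries (SD, n = 4 each; edgeR adjusted p = 0.0100). Adamts1, an aggrecan- and versican-cutting protease, rose to 30.7 ± 1.92 CPM in het, against 25.4 ± 1.81 CPM in WT libraries (SD, n = 4 each; edgeR adjusted p = 0.0301).

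All 4 protease calls ended when a choroid plexus or ependymal score was fitted beside genotype, where Mmp2 had a log2 fold change of 0.59 (edgeR adjusted p = 0.413) and 0.46 (edgeR adjusted p = 0.949). Both scores were apart between genotypes, and with them fitted 1 and 0 genes of the whole table passed. With the ependymal score Nr2f1 itself missed the threshold (edgeR adjusted p = 0.448). These fits cannot separate genotype from tissue content, and the cause of the protease differences was not tested. Of 19 alternatives, Mmp2 passed in 17, Mmp15 in 15 and Mmp14 and Adamts1 in 9 each. The number of called pathway genes was 2 without het library 1 or 4 or WT library 1 or 3, and 8 without WT library 4. The other 13 tested proteases and inhibitors did not pass by edgeR, and the list of 17 had a median log2 fold change of 0.20. By DESeq2 6 of the 17 passed as higher and 1 as lower, against 5.19% and 1.65% of all genes with a DESeq2 adjusted p. This adds 3 genes to the 4, named here after their values were seen. They were Timp2 and Timp3, inhibitors of matrix metalloproteinases, as higher (DESeq2 adjusted p = 0.0184 and 0.0122; edgeR adjusted p = 0.171 and 0.124), and the membrane metalloproteinase gene Mmp16 as lower (DESeq2 adjusted p = 0.0149; edgeR adjusted p = 0.0642).

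In the other lists 0 genes passed by edgeR, and their counts at an unadjusted p under 0.05 are given against 17.2% of all tested genes (10.0% higher, 7.11% lower). Their DESeq2 counts stand against 5.19% higher and 1.65% lower of all genes with a DESeq2 adjusted p. Of 21 genes that build and sulfate chondroitin chains, the sugar side chains of lecticans, 6 were lower and 0 higher at an unadjusted p under 0.05, and 2 were lower by DESeq2. Such counts over a chosen list are descriptions with no test. The lowest p belonged to Chst12, a sulfotransferase gene, at 18.9 ± 0.842 CPM in het and 21.3 ± 0.668 CPM in WT libraries (SD, n = 4 each; edgeR adjusted p = 0.0828), and Chsy3, a chain polymerase gene, at 7.31 ± 0.842 CPM in het and 9.12 ± 0.892 CPM in WT libraries (SD, n = 4 each; edgeR adjusted p = 0.0995). Among 10 net partners 1 was higher and 1 lower at an unadjusted p under 0.05, near the share of all genes, and 1 was higher by DESeq2. They were Tnc (tenascin-C), at 7.48 ± 1.01 CPM in het and 5.64 ± 0.919 CPM in WT libraries, and Rtn4r, the Nogo receptor gene, at 73.1 ± 3.08 CPM in het and 80.4 ± 4.18 CPM in WT libraries (SD, n = 4 each; edgeR adjusted p = 0.115 and 0.121). Tnr, the tenascin that bridges lecticans in nets, had a log2 fold change of -0.018 ± 0.0455 (SE; edgeR adjusted p = 0.888) and was chosen for its role after its values were seen.

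Of 10 tested hyaluronan receptors and binding proteins 3 were higher and 1 lower at an unadjusted p under 0.05, against 17.2% of all tested genes in either direction, and 1 was higher by DESeq2. Layn (layilin), a membrane hyaluronan receptor, was at 1.71 ± 0.202 CPM in het and 1.15 ± 0.232 CPM in WT libraries, and Stab1 (stabilin-1), a scavenger receptor gene, at 10.4 ± 1.42 CPM in het and 8.45 ± 1.02 CPM in WT libraries (SD, n = 4 each; edgeR adjusted p = 0.103 and 0.169). Of 6 tested breakdown genes 2 were higher and 1 lower at an unadjusted p under 0.05, against the same 17.2%, and 1 was higher by DESeq2. Of 8 precursor and synthesis genes none passed at an unadjusted p under 0.05 or by DESeq2, with the lowest p for Gnpnat1 at a log2 fold change of -0.17 and Gfpt2 at 0.18 (edgeR adjusted p = 0.302 and 0.407). Exons of Gnpnat1 share 83.5% of their bases with other genes. Neither did any of the 3 other link protein and lectican genes, with Hapln3 at a log2 fold change of 0.17 and Vcan at 0.039 (edgeR adjusted p = 0.594 and 0.758).

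**Figure D5:**
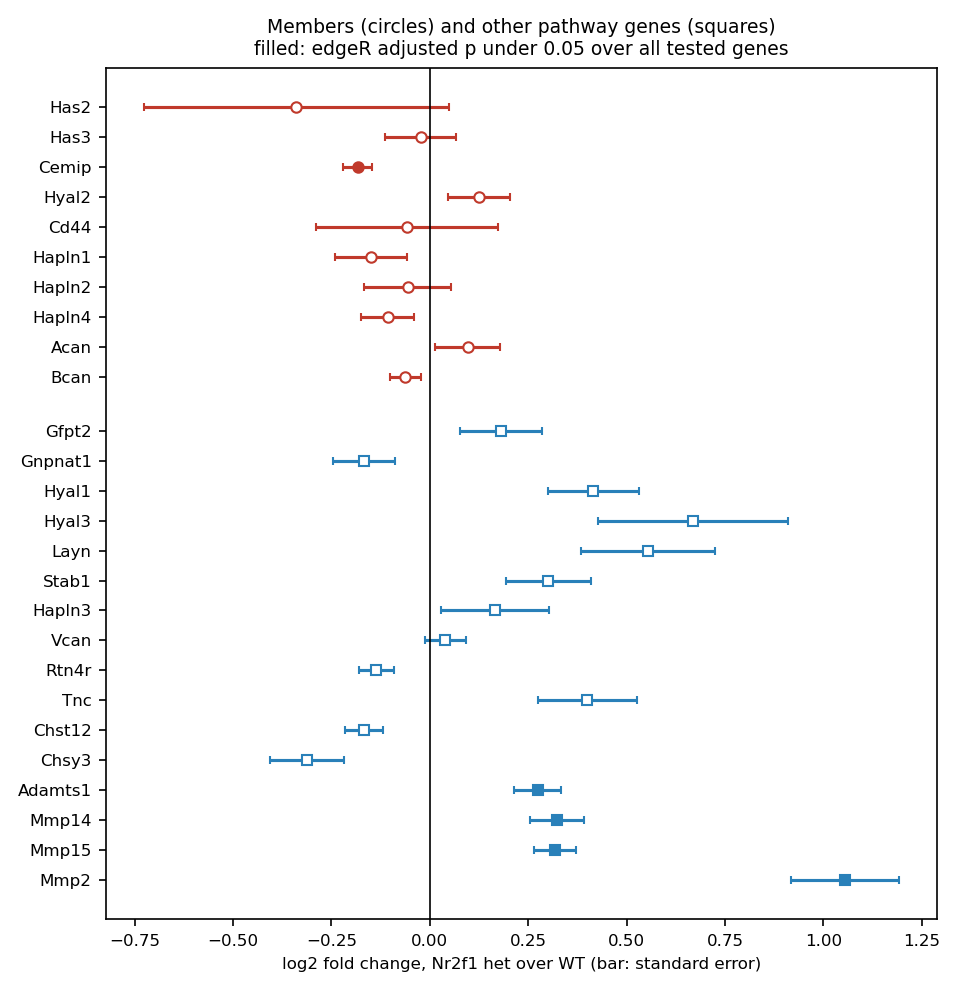
Log2 fold change of Nr2f1 het over WT with its standard error for the 10 members (circles) and the named genes of the other lists (squares), filled where the edgeR adjusted p is under 0.05. Cemip at -0.18 is the filled member, and Mmp2 at 1.06, Mmp14, Mmp15 and Adamts1 are the filled squares to the right of 0.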

How the data were processed

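Hippocampal RNA of 8 mice was made into cDNA from 10 ng of total RNA with poly(A) and random priming and sequenced as libraries of 400 bp insert, per the labels' protocols. The kit does not mark strand, so overlapping genes cannot be told apart. The authors deposited raw counts per Ensembl gene; the tools in the submitters' processing notes are STAR 2.4.2a, HTSeq, DESeq2 and FastQC, with NCBIM37 and mm9 as builds. The annotation and the strand setting are stated nowhere in these notes (not given in the sources used here). Spike-in rows (92, with 0.0431% to 0.0787% of counts) were left out of library sizes and tests. Symbols matched 32620 of 37310 genes. Counts were TMM-normalised, filtered with filterByExpr (minimum count 10, total 15) and compared with the quasi-likelihood test of edgeR 4.0.16 in R 4.3.3, two-sided, Benjamini-Hochberg adjusted over 17913 genes at 0.05. DESeq2 1.42.0 was an alternative. The step was tested on simulated data. The members and lists were chosen with earlier results of these data known. The 10 members, Nr2f1, the called genes and 2 lowest p of each list, and the 3 genes most like each member are named, except 1 that is not reported here. Scores are mean log2 CPM of a marker list, centred over libraries. Floors of 3 counts cover counting error only. GENCODE and RefSeq tables of GRCm38 gave lengths, names and upstream sequence.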

Additional observations from a re-analysis of the deposited data

How the results depend on the processing

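Under 19 alternatives for each of the 10 members (18 for Has2), direction and side of the threshold were kept in 161 of 189 values. Cemip passed in 8 of 19 and its log2 fold change lay between -0.23 and -0.086, the last with spike-in scaling, which moved the median of all genes to 0.091. The number of members that passed was 0 with spike-in scaling, the replicate block, odd- or even-numbered libraries alone, the choroid plexus or ependymal score as a covariate and WT libraries 1 and 3 left out, where 1 or 2 members had an unadjusted p under 0.05, and 0 to 1 without each library in turn. Genes called over the whole table, 535 (469 higher, 66 lower), were 1387 with spike-in scaling (1368 higher, 19 lower), 1200 with the DESeq2 Wald test (911 higher, 289 lower), 78 among even-numbered libraries, 170 without WT libraries 1 and 3, 1 with the choroid plexus and 0 with the ependymal score, where 894 had an unadjusted p under 0.05. Without each library they ran from 171 to 767, at 222 without WT library 1, 171 without WT library 3 and 321, 315 and 281 without het library 1, 3 or 4. Other pathway genes called, 4, were 10 with spike-in scaling, 12 with DESeq2, 1 among even-numbered libraries or without WT libraries 1 and 3, 0 with either score, where 4 (choroid plexus) and 3 (ependyma) had an unadjusted p under 0.05, and 2 to 8 without each library.

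Signs that turned, on the log2 scale, belonged to genes that did not pass. With spike-in scaling Has3 was 0.073, Cd44 0.039, Hapln2 0.044 and Bcan 0.035. Among odd-numbered libraries Has2 was 0.36, Has3 0.075 and Hapln2 0.098, and among even-numbered ones Vcan -0.017. With the choroid plexus score Hyal2 was -0.065, Gfpt2 -0.066 and Vcan -0.023, and with the ependymal score Hyal2 -0.14, Gfpt2 -0.11, Vcan -0.089 and Bcan 0.022. Without WT libraries 1 and 3 Vcan was -0.029. Without each library Has3 ran from -0.067 to 0.043, Cd44 from -0.23 to 0.21, Hapln2 from -0.14 to 0.040 and Vcan from -0.0090 to 0.077. The cause was not tested. The replicate number does not pair the animals: deviations of same-numbered libraries correlated at 0.072, 0.034, -0.19 and -0.14 over 14232 genes. As a block it gave 399 genes, 0 members and 3 other pathway genes called, with Cemip at -0.18 (edgeR adjusted p = 0.0690). No library correlated best with the same-numbered library of the other genotype. Depth limits Has2, with 10 to 29 reads a library.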
